A study of Mus musculus with 15 samples.

Results

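Receptor tyrosine kinases and the ERK kinases that they activate switch on genes whose products then dampen the same signal. Of these, 10 were examined here in mouse skeletal muscle: the dual-specificity phosphatase genes Dusp1, Dusp4, Dusp5 and Dusp6, the Sprouty genes Spry1, Spry2 and Spry4, the Sprouty-related gene Spred1, the receptor inhibitor gene Errfi1 and the early response gene Ier3. The members were taken by gene name from 55536 genes in the deposited tables. All 10 were found once by name, and all 10 passed the filter on low values in each of the 3 comparisons. The list was drawn up with earlier results of these data known, so its counts are descriptions and no test over the list was made.

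A ligand such as platelet-derived growth factor pairs up its receptors, which recruit adaptors that load Ras with GTP. Ras then starts the Raf, MEK and ERK kinase relay. Dual-specificity phosphatases remove phosphate from ERK and its relatives, Sprouty and Spred proteins act between the receptor and Raf, and Errfi1 binds receptors of the EGF receptor family directly. Because ERK itself induces many of these genes, their RNA is commonly read as a trace of recent pathway activity, although stress kinases, hormones and tissue handling can induce several of them as well.

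The 15 samples were skeletal muscle of male mice aged 2 months: 5 labelled wild type (control), 5 labelled PdgfrB Knock Out (knockout) and 5 labelled PdgfrB D489V (D489V). The series describes the knockout as myogenin-specific and the D489V mice as carrying a constitutively active receptor, also in a myogenin-specific way. Myogenin is a transcription factor of differentiating muscle cells, whereas in adult muscle Pdgfrb is mainly known from pericytes and fibroblast-like cells. The driver line, strain, litter and muscle are not given in the sources used here, and nothing says whether each sample is a separate animal, so p-values measure only the spread between these samples. Whole muscle also holds vessel, nerve, fat and connective tissue cells. In which cells the alleles acted was not tested. Sums of normalized counts ran from 29815559 to 36489777 per sample. Acta1 and Ckm, skeletal muscle actin and muscle creatine kinase, were at 939485 or more and 634341 or more normalized counts in every sample.

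Pdgfrb RNA was 1754 ± 72.9 normalized read counts (SD, n = 5) in controls, 1308 ± 266 in knockout and 906 ± 106 in D489V. Pdgfrb RNA was thus present in every library labelled knockout. The mean was lowest in D489V, but knockout 5 at 958 lay below D489V 3 at 1062 and D489V 5 at 970. Knockout replicate 3, labelled male, held 3165 normalized counts of Xist, an RNA of female cells, against at most 101 elsewhere. The member tests that the text turns on are therefore also given without it, while correlations, list counts and marker sums include it. The RNA came from whole tissue, so fewer cells of a type and less RNA per cell cannot be told apart in any value that follows.

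In controls the most abundant member per length was Dusp1, at 962 ± 87.3 normalized counts per kilobase of annotated exon (SD, n = 5). Errfi1 followed at 321 ± 77.2, Spry1 at 282 ± 24.7, Spry2 at 248 ± 49.8 and Dusp6 at 229 ± 6.34, and the sample ranges of neighbours among these 4 overlapped. Ier3 stood lower at 138 ± 23.4, with no overlap with Dusp6 above it or Spred1 below it. Spred1 at 65.5 ± 2.53 and Spry4 at 63.6 ± 11.4 overlapped, and Dusp4 at 35.8 ± 10.4 and Dusp5 at 17.6 ± 9.06 were the lowest, also overlapping. The first 6 places were the same in knockout and D489V, where Dusp1 stood at 800 ± 136 and 1380 ± 196 per kilobase.

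**Figure D1:**
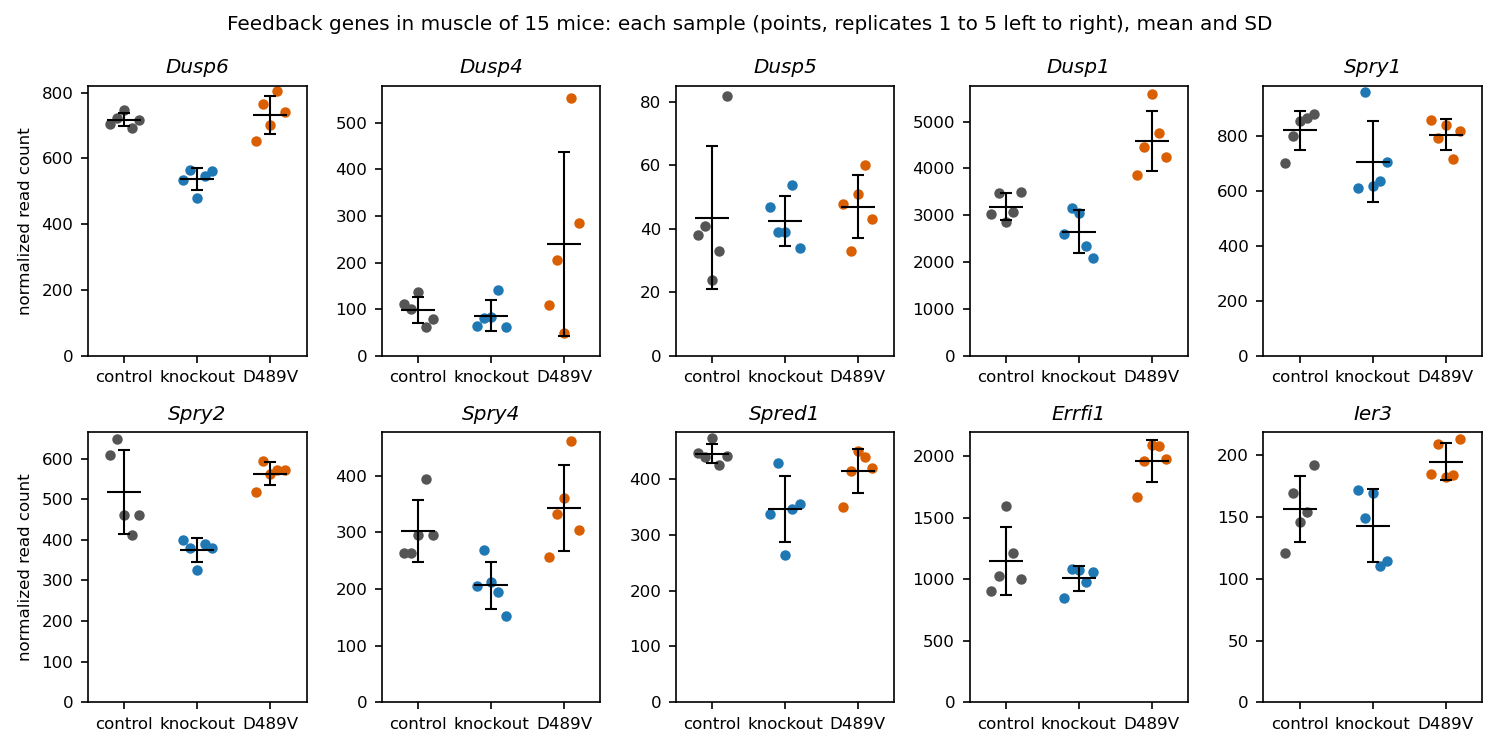
Normalized read counts (vertical axes, from 0) of the 10 feedback genes in each of 5 control, 5 knockout and 5 D489V samples; points are samples, horizontal bars means and whiskers SD. Dusp6 and Spry2 lie below every control in all 5 knockout samples, and Dusp1 and Errfi1 lie above every control in all 5 D489V samples.

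Knockout muscle was compared with control muscle first, which asks how the feedback genes stood when Pdgfrb was labelled as lost. Dusp6 and Spry2 were lower in every knockout sample than in any control, by 25.0% and 27.6% of the control mean. Spry4 and Spred1 were lower by 31.6% and 22.3%, with 1 knockout sample inside the control range in each case. None of the 10 passed limma's adjusted threshold of 0.05. Without the correction over all genes, 5 of 10 had a p under 0.05, all lower (Dusp1, Dusp6, Spry2, Spry4 and Spred1), against 7.42% of the 15234 genes tested. Over the whole table, 0.00656% of the genes were called, a single gene, so the threshold called almost nothing in this comparison.

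Dusp6 encodes the cytoplasmic phosphatase that acts most selectively on ERK, and its RNA is a standard readout of ERK activity (ENSMUSG00000019960, GRCm38 chromosome 10, 99263231 to 99267489, plus strand). Its normalized counts were 704, 723, 746, 694 and 718 in controls 1 to 5, and 535, 565, 480, 546 and 563 in knockout 1 to 5. The D489V samples held 652, 764, 701, 804 and 741. The knockout samples thus formed a separate, lower group, while the D489V samples lay on both sides of the controls. Controls varied little, with a coefficient of variation of 2.77%. On the log2 scale knockout differed from control by -0.42 (SE 0.0795, limma p 0.000222 and adjusted p 0.199). The exact two-sided permutation p was 0.00794, the smallest that 5 against 5 samples can give. By unadjusted p, Dusp6 ranked 17 of 15234 genes. Without knockout replicate 3, the lowest sample, the difference was -0.38 (limma adjusted p 0.338).

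Spry2, an inhibitor of Ras activation (ENSMUSG00000022114, chromosome 14, 105891947 to 105896819, minus strand), held 609, 648, 461, 411 and 461 normalized counts in controls 1 to 5. In knockout it held 400, 380, 325, 389 and 380, and in D489V 517, 593, 561, 571 and 572. All knockout samples lay below all controls, but control 4 at 411 was close to knockout 1 at 400. Controls 1 and 2 stood above the other controls and above every D489V sample, so that the controls alone spanned a ratio of 1.58. The difference in knockout was -0.45 (SE 0.136, limma adjusted p 0.296, exact permutation p 0.00794), and -0.40 without knockout replicate 3 (limma adjusted p 0.468). Groups did not overlap, with knockout lower, for these 2 of the 10 members, against 1.25% of all genes tested.

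Spry4, induced by ERK in many cell types (ENSMUSG00000024427, chromosome 18, 38586247 to 38601415, minus strand), held 263, 264, 296, 395 and 295 normalized counts in controls. The knockout samples held 206, 269, 212, 195 and 153. Knockout 2 lay within the control range and the other 4 below it. The change was -0.55 (SE 0.163, limma adjusted p 0.294, exact permutation p 0.0238). Spred1, which brings neurofibromin to Ras at the membrane (ENSMUSG00000027351, chromosome 2, 117121374 to 117182279, plus strand), held 446, 439, 472, 425 and 441 in controls and 337, 428, 264, 345 and 354 in knockout. Again only knockout 2 reached the control range, at 428 against a lowest control of 425. The change was -0.38 (SE 0.121, limma adjusted p 0.302, exact permutation p 0.0159). Without knockout replicate 3, the differences of Spry4 and Spred1 were -0.57 and -0.29, each with a limma adjusted p of 0.468.

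The remaining members overlapped between knockout and control. Spry1, known in muscle for its part in keeping satellite cells quiescent, ran from 703 to 879 normalized counts in controls and stood at 611, 961, 617, 635 and 705 in knockout, so that knockout 2 was the highest of these 10 samples and 3 knockout samples were the lowest. Dusp1 stood at 2859 to 3495 in controls and at 2607, 3157, 3044, 2355 and 2089 in knockout, a difference of -0.28 (limma adjusted p 0.320) with 3 of 5 knockout samples below every control, and -0.33 (limma adjusted p 0.468) without knockout replicate 3. The differences of Errfi1, Ier3 and Dusp4 were -0.16, -0.14 and -0.20, and that of Dusp5 was 0.07, each with a 95% interval that included 0. Counted by sample, knockout 1 and knockout 4 had 7 of 10 members below every control, knockout 5 had 6, knockout 3 had 5 and knockout 2 had 2. The same held for 17.2%, 16.1%, 20.1%, 21.6% and 12.1% of all genes tested in these samples, in that order. Spry1 in knockout 2 and Dusp4 in knockout 4 were the only members above every control in a knockout sample.

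The comparison of D489V with control muscle asks how the same genes stood with the allele labelled as active. Errfi1 and Dusp1 were higher in every D489V sample than in any control, by 70.5% and 43.9% of the control mean, while Dusp6, Spry1, Spry2, Spry4 and Spred1 overlapped with the controls. None of the 10 passed limma's adjusted threshold, which called 0.0587% of 15339 genes. At an unadjusted p under 0.05, 3 of 10 were higher (Errfi1, Dusp1 and Ier3) and 0 lower, against 5.37% of all genes higher and 4.06% lower. Counted by sample, 2, 5, 2, 5 and 4 of the 10 members were above every control in D489V 1 to 5, against 19.5%, 14.5%, 18.5%, 11.4% and 14.6% of all genes. Below every control were 3, 1, 1, 0 and 1 members, and Spred1 was among them in D489V 1, 2 and 5.

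Errfi1, also called Mig6, binds and blocks the kinase domain of EGF receptor family members and is induced by growth factors, stress and glucocorticoids (ENSMUSG00000028967, chromosome 4, 150853919 to 150868892, plus strand). Its normalized counts were 902, 1025, 1599, 1218 and 1001 in controls 1 to 5, and 1674, 1960, 2094, 2088 and 1982 in D489V 1 to 5. Knockout samples held 845, 1083, 1077, 983 and 1064. All D489V samples were above all controls, but control 3 at 1599 came close to D489V 1 at 1674. The change was 0.80 (SE 0.143, limma adjusted p 0.0638, exact permutation p 0.00794). Errfi1 passed without control replicate 3 (0.92, limma adjusted p 0.0132), with upper-quartile rescaling (0.87, limma adjusted p 0.0349) and with array weights (0.78, limma adjusted p 0.0321). In the other 16 of 19 alternatives it did not pass, with a limma adjusted p of up to 0.206. An antisense gene, 1700045H11Rik, overlaps Errfi1. The library kit kept the strand, but the strand setting used for counting is not given in the sources used here.

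Dusp1, a nuclear phosphatase of p38, JNK and ERK and an immediate early gene (ENSMUSG00000024190, chromosome 17, 26505590 to 26562128, minus strand), held 3018, 3484, 2859, 3066 and 3495 normalized counts in controls. In D489V it held 3860, 4456, 5583, 4764 and 4252. No D489V sample overlapped with a control, and D489V 3 was the highest. The change was 0.52 (SE 0.107, limma adjusted p 0.0947, exact permutation p 0.00794). The annotated gene overlaps Ergic1 on the other strand and small pseudogenes, so some reads could be assigned to either. For these 2 of 10 members the D489V samples lay above the controls with no overlap, against 1.10% of all genes tested.

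Ier3, an early response gene whose product binds ERK (ENSMUSG00000003541, chromosome 17, 35821684 to 35822923, plus strand), held 121, 169, 146, 154 and 192 normalized counts in controls and 185, 209, 182, 184 and 213 in D489V. Only control 5 reached the D489V range. The change was 0.33 (SE 0.133, limma adjusted p 0.466, exact permutation p 0.0317).

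Dusp4, a nuclear ERK phosphatase (ENSMUSG00000031530, chromosome 8, 34807297 to 34819894, plus strand), was the most variable member in knockout and D489V, with coefficients of variation of 37.6% and 82%, while in controls Dusp5 varied more (51.4% against 29.1%). Its normalized counts were 112, 101, 136, 62 and 80 in controls, 64, 81, 83, 142 and 62 in knockout, and 109, 205, 49, 553 and 284 in D489V. D489V 2, 4 and 5 were above every other sample, whereas D489V 3 was below every other sample. The difference from controls was 0.90 (SE 0.525, limma adjusted p 0.634), with a 95% interval of -0.25 to 2.04, so a wide range of changes was compatible with these 5 samples. Without D489V replicate 4, the highest, the difference was 0.48 (limma adjusted p 0.700), and without D489V replicate 3 it was 1.35 (limma adjusted p 0.282). Dusp5, another nuclear ERK phosphatase (ENSMUSG00000034765, chromosome 19, 53529109 to 53542431, plus strand), was the lowest member, with 24 to 82 counts in controls, 34 to 54 in knockout and 33 to 60 in D489V. The annotation places AC137853.2 across Dusp5 and Gm42922 across Spry1, each on the opposite strand.

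The Sprouty genes, Spred1 and Dusp6 lay closer to the controls in D489V. The log2 difference of Dusp6 from controls was 0.03 with a 95% interval of -0.15 to 0.20, and that of Spry1 (ENSMUSG00000037211, chromosome 3, 37639947 to 37644598, plus strand) was -0.03 with an interval of -0.22 to 0.17. Spred1 differed by -0.11 (-0.31 to 0.09), Spry2 by 0.14 (-0.14 to 0.42) and Spry4 by 0.17 (-0.19 to 0.53). These intervals do not show that the genes were unchanged. They leave room, in each of these genes, for changes smaller than the log2 change of Errfi1. The interval of Errfi1 was 0.48 to 1.11, and among these genes only the Spry4 interval reached it.

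**Figure D2:**
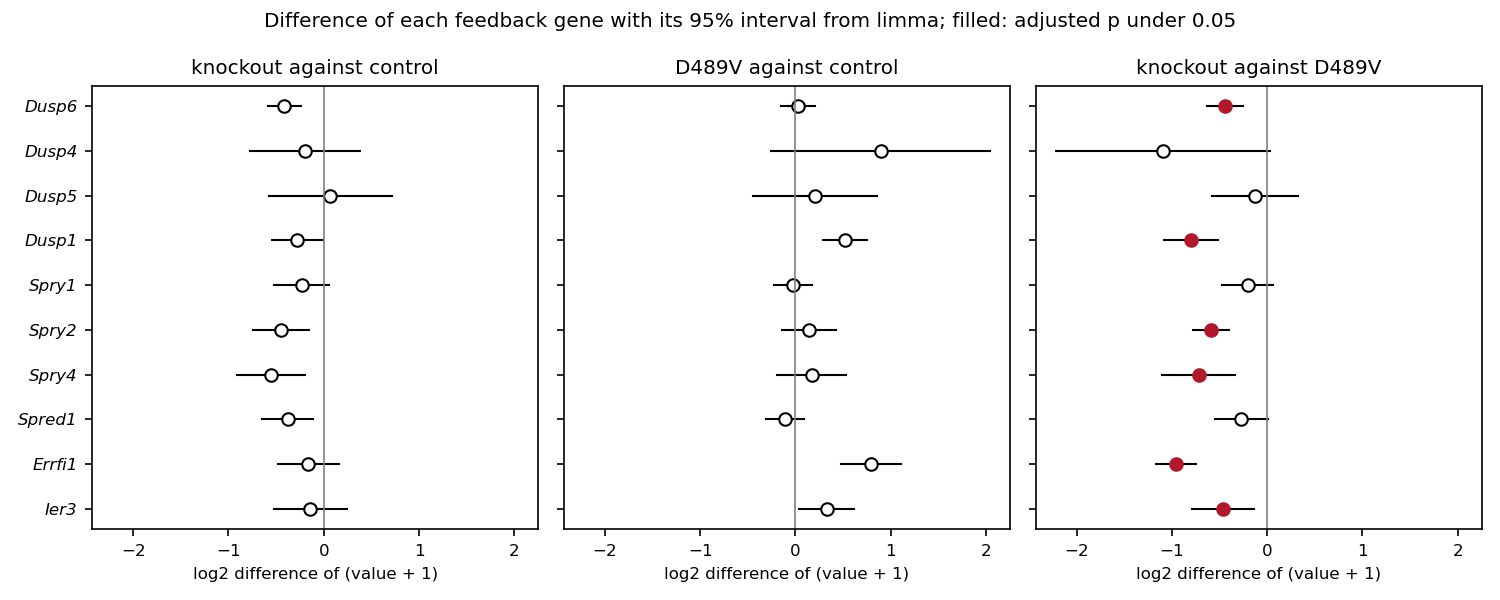
Log2 difference of (value + 1) for each feedback gene (horizontal axis) in the 3 comparisons, with lines for the 95% interval from limma and filled points for an adjusted p under 0.05. Dusp6 lies at -0.42 in knockout against control and at 0.03 in D489V against control, whereas Errfi1 lies at -0.16 and 0.80; filled points appear only in knockout against D489V.

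The direct comparison of knockout with D489V muscle tests the difference between the mutant groups without the shared controls. All 10 members had a negative difference (lower in knockout), and 6 of 10 passed the threshold: Errfi1, Spry2, Dusp1, Dusp6, Spry4 and Ier3. Over the table, 20.8% of 15299 genes passed and 10.3% passed in that direction, so calls were common in this comparison. The median difference was -0.53 over the members against 0 over all genes tested. Groups did not overlap for 5 of the 10, all with knockout lower, against 6.70% of all genes. The same 6 genes passed without knockout replicate 3.

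Errfi1 differed most clearly, at -0.96 (SE 0.0952, limma adjusted p 4.40e-04), rank 9 by p over the table, with knockout at 1010 ± 101 and D489V at 1960 ± 171 normalized counts (SD, n = 5). Dusp1 differed by -0.80 (limma adjusted p 0.00400), from 4583 ± 648 in D489V to 2650 ± 452 in knockout. Spry2 differed by -0.59 (limma adjusted p 0.00299), with 375 ± 29 against 563 ± 28.1, and Dusp6 by -0.44 (limma adjusted p 0.00752), with 538 ± 34.6 against 732 ± 58.4. Knockout and D489V samples did not overlap for any of these 4.

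Spry4 differed by -0.72 (limma adjusted p 0.0167), although knockout 2 at 269 was above D489V 1 at 256. Ier3 differed by -0.47 (limma adjusted p 0.0457) with no overlap, and this call was lost in 12 of 19 alternatives. The 4 members that did not pass were Dusp4, Spred1, Spry1 and Dusp5. Dusp4 differed by -1.09 with a 95% interval of -2.22 to 0.03, and it passed without D489V replicate 3 (-1.55, limma adjusted p 0.0280). Without D489V replicate 4 it was -0.69 (limma adjusted p 0.274). Spred1 differed by -0.27 (-0.55 to 0.01) and Spry1 by -0.21 (-0.48 to 0.06). Spry1 passed without knockout replicate 2 (-0.32, limma adjusted p 0.0348).

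Controls held 717 ± 19.8 of Dusp6 and 1149 ± 276 of Errfi1 (SD, n = 5), so the Dusp6 mean in controls stood near that of D489V and the Errfi1 mean near that of knockout. The ratio of Errfi1 to Dusp6 counts within a sample was 1.28 to 2.14 in controls, 1.58 to 2.24 in knockout and 2.57 to 2.99 in D489V. All 5 D489V samples lay above the other 10 on this ratio. The other ratios computed did overlap. Dusp1 to Dusp6 was 5.74 to 7.96 in D489V, 3.83 to 4.87 in controls and 3.71 to 6.34 in knockout. Errfi1 to Spry2 was 3.24 to 3.73 in D489V, 1.48 to 3.47 in controls and 2.11 to 3.31 in knockout. The pairs were chosen after the values were seen and no ratio was tested.

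**Figure D3:**
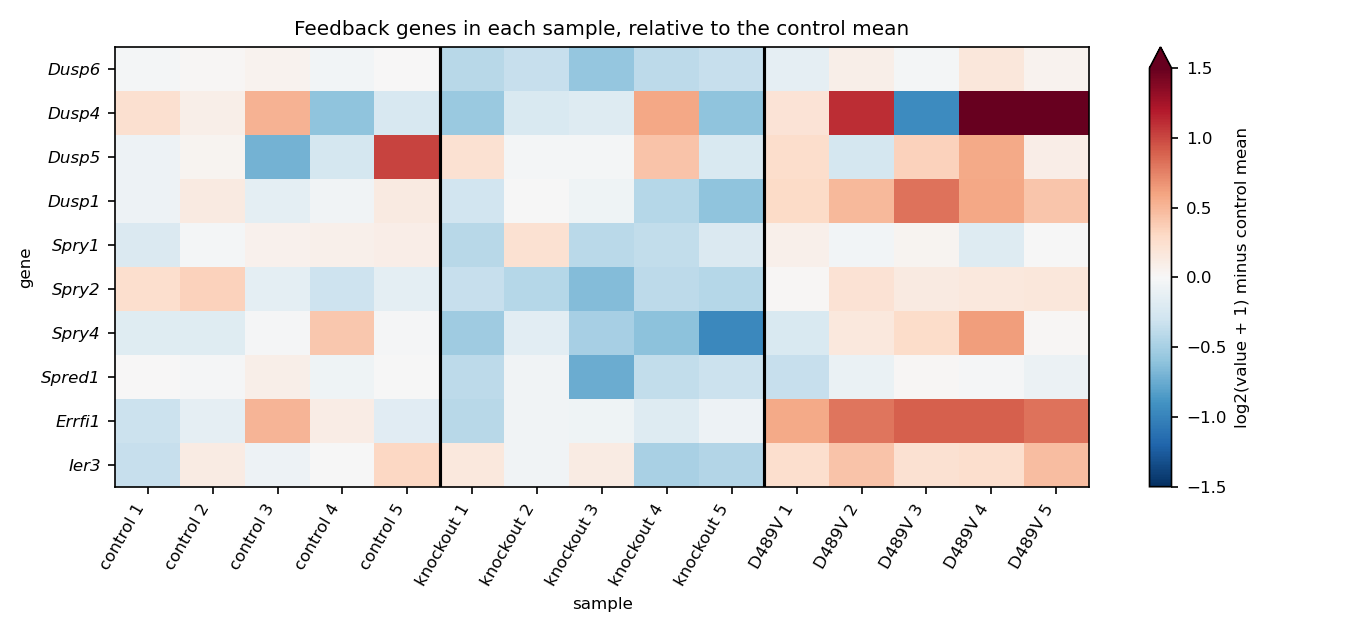
Log2(value + 1) of each feedback gene (rows) in each of 15 samples (columns), minus the control mean; blue is below and red above the control mean, the scale ends at 1.5 either way, and Dusp4 in D489V 4 and D489V 5 lies beyond it. Knockout columns are blue for Dusp6, Spry2 and Spry4, and D489V columns are red for Dusp1, Errfi1 and Ier3.

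Promoter sequence is shown for the 2 members that stood apart in knockout and the 2 that stood apart in D489V, so that the start regions can be compared. The lines give bases before the RefSeq transcription start on GRCm38.p6, 5′ to 3′ on the gene's strand, in lower case, with capitals for the letters TGACGTCA (the full cyclic AMP response element) and TATAAA. The windows are chr10:99262981-99263230 (plus strand) for Dusp6, chr14:105896820-105897069 (minus strand) for Spry2, chr4:150854820-150855069 (plus strand) for the second RefSeq start of Errfi1, and chr17:26508520-26508722 (minus strand) for Dusp1, where the last 47 bases before the start were left out because GENCODE M21 places an untranslated exon there. The Errfi1 window shares 124 bases with an exon of the antisense gene.
Dusp6: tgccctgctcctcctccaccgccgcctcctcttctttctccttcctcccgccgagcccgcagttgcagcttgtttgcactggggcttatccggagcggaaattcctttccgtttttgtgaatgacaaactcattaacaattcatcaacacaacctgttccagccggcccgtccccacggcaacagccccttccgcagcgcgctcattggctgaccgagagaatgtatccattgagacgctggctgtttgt
Spry2: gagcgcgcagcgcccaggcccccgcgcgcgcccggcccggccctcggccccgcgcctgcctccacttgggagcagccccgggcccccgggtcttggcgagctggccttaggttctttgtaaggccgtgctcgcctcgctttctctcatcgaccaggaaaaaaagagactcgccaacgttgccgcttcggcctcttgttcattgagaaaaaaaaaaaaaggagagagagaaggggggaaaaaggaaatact
Errfi1: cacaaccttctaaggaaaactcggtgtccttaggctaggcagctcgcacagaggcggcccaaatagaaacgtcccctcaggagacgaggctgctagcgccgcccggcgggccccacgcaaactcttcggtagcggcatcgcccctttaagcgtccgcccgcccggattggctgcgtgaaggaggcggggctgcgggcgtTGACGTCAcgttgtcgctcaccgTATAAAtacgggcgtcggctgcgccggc
Dusp1: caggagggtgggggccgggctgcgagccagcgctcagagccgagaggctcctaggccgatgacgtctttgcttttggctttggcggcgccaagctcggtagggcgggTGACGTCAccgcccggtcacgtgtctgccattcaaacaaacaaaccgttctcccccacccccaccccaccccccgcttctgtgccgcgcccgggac

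Windows of 250 bases before the start were at hand for 8 of the 10 members. TGACGTCA was present in 2 of the 8, Dusp1 (143 to 136 bases before the start) and Errfi1 (51 to 44 bases before its second start), and in 1.55% of the 32851 windows of all genes. By gene, it was present in 1.77% of all genes with a window. In the other lists it was present in 13.3% of the Ras to ERK relay, 12.5% of ERK targets, 10.5% of receptor tyrosine kinases, 10% of the other phosphatase, Sprouty and Spred genes, 9.52% of immediate early genes and 6.25% of ligands, which is 1 or 2 genes in each, and in 0 of the other receptor feedback and glucocorticoid genes. TATAAA was found in Errfi1 alone among the members (12.4% of all windows). The letters TGANTCA (6.75%) and CCGGAAGT (2.88%) were in none of the 8. The CArG box (1.47%) was found in Dusp5, and GGGCGG (32.7%) in Dusp1, Dusp5, Spry1, Spred1, Errfi1 and Ier3. All matches in Errfi1 lay before its second start. The window before its first RefSeq start, chr4:150853546-150853795, is not printed and held no match to any motif searched. Both strands were searched, and matches of different motifs did not overlap in the windows of these 8 members. These are matches of letters in short windows, and no test of them was made.

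Across the 15 samples most pairs of members had a positive correlation. The share over pairs of all genes was not computed, so this is not shown to be particular to the members. Of 45 pairs, 41 had a Pearson r above 0 on log2 values, with a median of 0.44, and 6 pairs passed in both Pearson and Spearman permutation tests after adjustment over the 45. These 6 were Dusp6 with Spry2, Dusp6 with Spry4, Dusp1 with Spry4, Dusp1 with Errfi1, Dusp1 with Ier3, and Spry4 with Errfi1. The permutations moved samples freely between groups, so these p-values also take in the differences between groups. With group means subtracted, r was 0.30 for Dusp6 with Spry4 and 0.59 for Dusp1 with Spry4. It was 0.53 for Dusp1 with Ier3 and 0.37 for Spry4 with Errfi1. For Dusp6 and Spry2, r was 0.84 (permutation adjusted p 0.00292) and rho 0.77 (permutation adjusted p 0.0187), and r was 0.76 without the 2 samples farthest from the Dusp6 median. With group means subtracted, r of Dusp6 and Spry2 was 0.35. For Dusp1 and Errfi1, r was 0.79 (permutation adjusted p 0.0045) and rho 0.76 (permutation adjusted p 0.0187), r was 0.79 without the 2 farthest samples, and 0.03 with group means subtracted. Over all 45 pairs the median r fell to 0.14 with group means subtracted, so much of the shared variation lay between groups. Dusp6 and Spred1 had the highest r within groups, at 0.77.

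The genes whose log2 values followed the summed standardized members most closely, among 12150 genes with a mean of 50 or more, were Apold1 (r = 0.92), Gem (r = 0.911) and Gas2l1 (r = 0.893) over the 15 samples. They were selected as the highest, so no p is given. Apold1, an early response gene of endothelial cells, was at 247 ± 45.9 normalized counts in controls, 92 ± 37.1 in knockout and 646 ± 156 in D489V (SD, n = 5). Gem, a small GTP-binding protein gene, was at 129 ± 6.04, 68.4 ± 30 and 183 ± 21.6. Neither knockout nor D489V samples overlapped with the controls for Apold1 or Gem. Gas2l1, whose product links actin and microtubules, ran from 302 to 347 in controls, 232 to 320 in knockout and 341 to 423 in D489V, overlapping the controls in both.

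Other genes of the pathway were counted from fixed lists. Among 11 tested of 13 other dual-specificity phosphatase, Sprouty and Spred genes, 3 were called higher and 1 lower in knockout against D489V, where 10.5% of all genes were called higher and 10.3% lower. The phosphatase genes Dusp3, Dusp22 and Dusp16 were higher by 0.55, 0.31 and 0.54 (limma adjusted p 0.0104, 0.0312 and 0.0319). Spred2, a second Spred gene, was lower, at -0.75 (limma adjusted p 0.0152). Its counts of 134 to 283 in knockout also lay below every control, at 299 to 408, with a difference of -0.73 (limma adjusted p 0.266). The family therefore did not move in a single direction. Among 12 other receptor feedback genes, 1 was called higher (Lrig1, at 0.47) and 2 lower (Lrig3 at -0.51 and Socs3 at -0.81).

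Upstream, 20 genes of the Ras to ERK relay were tested, and 5 were called higher and 2 lower in knockout against D489V. Mapk3, which encodes ERK1, was lower at -0.59 (limma adjusted p 0.00662). Ptpn11, the phosphatase SHP2 that relays receptor signals to Ras, was higher at 0.73 (limma adjusted p 0.00578), and Grb2, the adaptor, at 0.28 (limma adjusted p 0.0371). Of 23 receptor tyrosine kinases, 2 were called higher and 8 lower. Musk, the receptor of the neuromuscular junction, was higher at 1.60, and the endothelial receptors Kdr and Tek were lower at -0.87 and -0.54, as was Erbb2 at -0.59. Of 19 growth factor ligands tested, 1 was called higher (Fgf6 at 0.68) and 3 lower, namely Fgf10, Angpt2 and Pdgfb at -1.53, -0.84 and -0.46. Against 10.5% of all genes called higher and 10.3% lower, the ligand counts and the 2 of 20 lower in the relay were near the shares over all genes.

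Downstream, 3 of 12 tested ERK transcription targets were called lower and 0 higher in the same comparison: Elk3 at -0.80, Myc at -0.78 and Phlda1 at -0.56 (limma adjusted p 0.00470, 0.0238 and 0.0258). Of 24 immediate early genes tested, 19 were called lower and 1 higher, with Ccn1 at -1.79, Klf10 at -1.13, Apold1 at -2.86 and Junb at -1.31. Their median was -1.07, against -0.53 for the feedback genes. Of 16 glucocorticoid response genes, which share inducers with Dusp1 and Errfi1, 3 were called lower (Cebpd, Mt1 and Cdkn1a at -0.98, -1.34 and -0.96) and 1 higher (Foxo3 at 0.52). The median of the glucocorticoid list was -0.05, with 8 genes above 0 and 8 below. Over all genes tested in this comparison, 10.3% were called lower and 10.5% higher.

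Against control the lists gave few calls. In knockout 0 genes of these 8 other lists were called by limma. At an unadjusted p under 0.05 the immediate early list had 8 of 24 lower and 1 higher, and the glucocorticoid list 8 of 16 higher and 0 lower. Over all genes tested, 7.42% were lower and 7.65% higher at that threshold. The summed glucocorticoid genes were 23974 and 27244 in controls 1 and 2 but 47987 to 59614 in controls 3 to 5. The knockout sums, at 40353 to 58378, lay within the control range. In D489V, Apold1 was called higher (1.37, limma adjusted p 0.0243) and Pdgfrb lower. There, 18 of 24 immediate early genes and 8 of 16 glucocorticoid genes were higher at an unadjusted p under 0.05, and 0 of either list lower. Over all genes tested there, 5.37% were higher and 4.06% lower. The glucocorticoid sums of D489V, at 36438 to 62194, overlapped those of controls. Mt2, at 1.45 (limma adjusted p 0.0638), had D489V samples above every control, as did Cdkn1a, at 2106 ± 802 normalized counts in D489V against 870 ± 320 in controls (SD, n = 5; limma adjusted p 0.114).

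**Figure D4:**
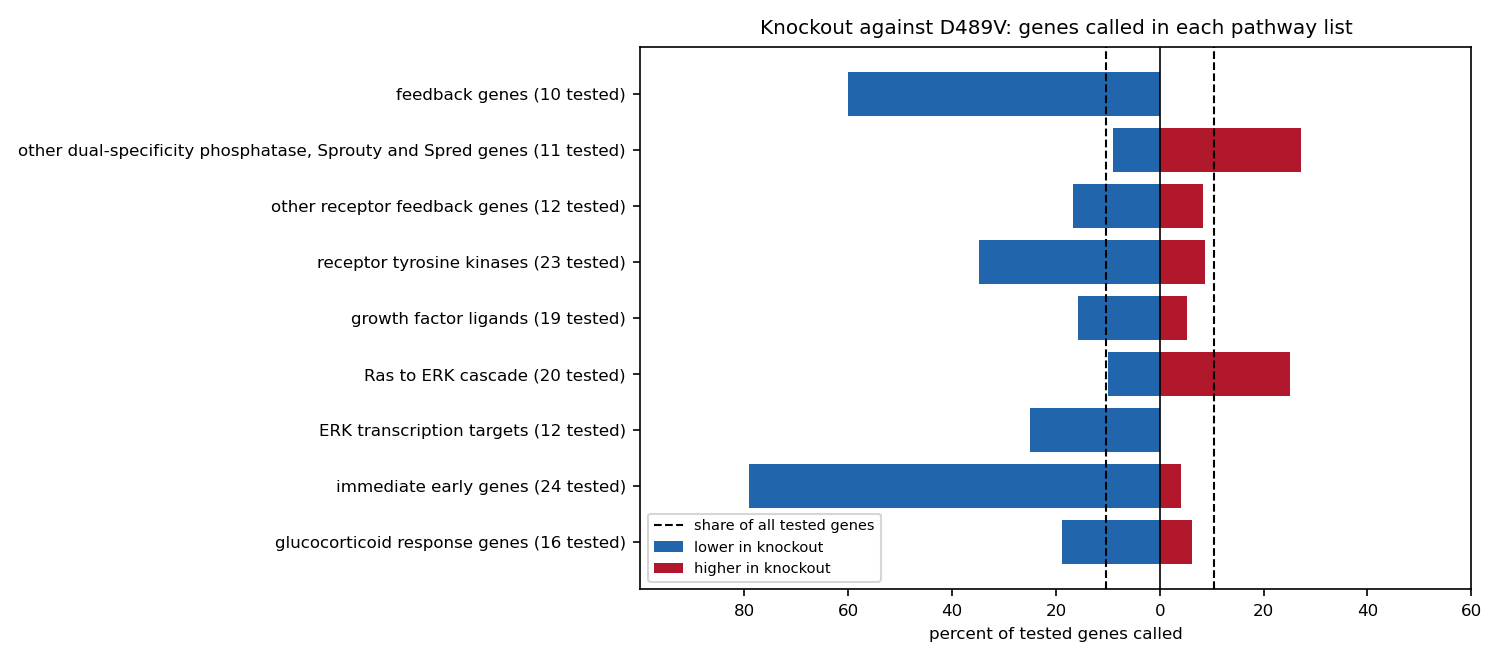
Percent of the tested genes in each of 9 pathway lists (cell type markers are not drawn) that were called in knockout against D489V (limma adjusted p under 0.05), to the left for lower and to the right for higher in knockout; dashed lines mark the shares over all tested genes, 10.3% and 10.5%. The feedback genes (6 of 10 lower) and the immediate early genes (19 of 24 lower) reach farthest to the left of these 9, and the other phosphatase, Sprouty and Spred genes extend mainly to the right.

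Markers of some other cell types differed between the groups as well. The summed level of 7 endothelial markers (Pecam1, Cdh5, Emcn, Egfl7, Esam, Cldn5 and Vwf) was 12096 to 18621 in controls, 7200 to 11599 in knockout and 14216 to 17035 in D489V, so that every knockout sample lay below every control, as for Dusp6 and Spry2. In knockout against D489V, where 6 members were called lower, all 7 endothelial markers were called lower as well. So were 5 of 5 erythrocyte, 5 of 5 Schwann cell, 4 of 5 adipocyte and 3 of 7 mural markers, with 1 mural marker called higher. Over all genes tested in this comparison, 10.3% were called lower and 10.5% higher. In the same comparison, 0 of 6 myofibre, 0 of 5 slow myofibre, 0 of 4 satellite cell and 0 of 5 fibro-adipogenic progenitor markers were called. Among the 5 macrophage, 3 lymphocyte and 4 tenocyte markers tested, 0 were called too. Mural cells, the pericytes and smooth muscle of vessels, are a main site of Pdgfrb. Their 7 markers summed to 22492 to 26985 in controls, 21524 to 24042 in knockout and 22811 to 28628 in D489V. In knockout against control, 5 of 7 mural and 6 of 7 endothelial markers were lower at an unadjusted p under 0.05, against 7.42% of all genes. The mural marker Kcnj8, at 449 to 518 in knockout and 681 to 794 in controls, did not overlap (-0.59, limma adjusted p 0.0787). Knockout 3 had the lowest endothelial sum and also the lowest Dusp6, Spry2 and Spred1. Its mural (21524), fibro-adipogenic progenitor (9302), macrophage (666), erythrocyte (3175) and tenocyte (6626) sums were the lowest of the 15 samples as well. Its sums on the other marker lists were not the lowest, and its slow myofibre sum (150219) was the highest in knockout. In D489V against control, 5 erythrocyte markers summed to 12454 to 22120 against 5671 to 8413, with no overlap, as for Dusp1 and Errfi1. Adipocyte markers (5 genes) ran from 15045 to 54309 in D489V and from 1653 to 29803 in controls, and Schwann cell markers (5 genes) from 9611 to 39989 and from 6519 to 11084. The summed immediate early genes stood at 22887 to 28096 in controls, 18717 to 24158 in knockout and 33412 to 41603 in D489V. D489V 3, highest in Dusp1 and lowest in Dusp4, also held the highest Schwann and immediate early sums. None of these markers was at 0 in all samples of a group. The part of blood vessels, mural cells, blood, fat, nerve or handling of the tissue in the differences of the feedback genes was not tested.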

How the data were processed

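Poly(A) RNA of 15 muscle samples was sequenced from directional libraries, per the labels' protocols. Each deposited value is treated as a score, since it is a gene's read number after a normalization by the authors and rounding, as the deposited tables' names and whole values show; the method is not given in the sources used here. The submitters' processing notes list Trim Galore 0.6.0, cutadapt, FastQC, STAR 2.7.0e, DESeq2 1.26.0 and GRCm38, with no role or order. The 2 deposited tables were joined by gene identifier, and their 5 control columns were identical. Median ratios of samples to their geometric mean lay between 1.0069 and 1.0097, so the tables share a scale. All 55536 identifiers matched GENCODE M21, which gave coordinates and exon lengths.

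For each pair of groups, limma 3.58.1 (R 4.3.3; trended eBayes, two-sided) modelled log2(value + 1). Genes needed a value of 10 in 5 of the 10 samples, and Benjamini-Hochberg adjustment ran over all genes. This scale understates changes of low genes. Single members were also tested by exact permutation, and correlations by 100000 permutations. The fit was tested on data simulated for D489V against control only, with the same dispersion for all genes. It recovered 46.3% of genes changed 1.5-fold, 98.5% of those changed 2-fold and 100% of those changed 4-fold. It also called 4 unchanged genes. Spearman correlations between samples were 0.951 to 0.993. Alternatives changed the pseudocount, filter, scaling, variance model, weights, samples in the fit and replicate block, and left out each replicate.

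The members and lists were chosen with earlier results of these data known. All members are named. Of each other list at most 4 called genes per comparison are named by smallest p, or at most 3 where none is called, with Pdgfrb and the 3 genes most like the members. A gene that this rule names is not reported here. Xist, Acta1, Ckm and the Spred2 and Cdkn1a counts were added as checks or after values were seen. Promoters are from RefSeq (GRCm38.p6). Tables and plots were made in Python 3.11.15 with pandas 2.3.3, numpy 2.4.6 and matplotlib 3.10.9.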

Additional observations from a re-analysis of the deposited data

Results flagged for a closer look

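Of 30 groups of 5 samples tested for a far sample (10 members in 3 groups), 1 was flagged, against 1.5 by chance. Spry2 in knockout replicate 3 was 325 normalized counts against 380 to 400 in the other knockout samples, a gap of 0.753 of the group's log2 range, above the limit of 0.71. This library also held the Xist RNA, and the Spry2 calls were the same without it.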

How the results depend on the processing

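Of 567 values of single members under the alternatives, 542 stayed on the same side of 0 and of the threshold, 12 lost the threshold, 5 gained it and 8 turned sign. All 12 losses were Ier3 in knockout against D489V. Errfi1 in D489V against control passed with upper-quartile rescaling (0.87), array weights (0.78) and without control replicate 3 (0.92). It did not pass in the other 16 of 19 alternatives, where the limma adjusted p reached 0.206. The values that turned sign were small. With upper-quartile rescaling Spry1 in D489V against control was 0.049, and Dusp5 in knockout against D489V was 0 with quantile normalization and 0.041 with array weights. Leaving out a replicate gave Dusp5 in knockout against control -0.107 to 0.326, Dusp6 in D489V against control -0.007 to 0.068 and Spry1 there -0.08 to 0.015. The cause was not tested.

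No member was called in knockout against control under any alternative run, and Dusp6 had an adjusted p of 0.0522 to 0.56 there. In D489V against control 1 member was called with upper-quartile rescaling and with array weights, and 0 to 1 when a replicate was left out. In knockout against D489V the number was 5 to 6.

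Counts over all genes moved more. For knockout against control (1 gene) there were 3 with quantile normalization, 16 with all 15 samples fitted together, and 1 to 7 with a replicate left out (7 without knockout replicate 2). For D489V against control (9 genes) there were 19 at pseudocount 5, 4 when a mean of 50 was required, 29 after upper-quartile rescaling (75.9% higher against 44.4%), 16 with quantile normalization, 21 with robust eBayes, 86 with array weights, 1 with all 15 samples fitted together, and 2 to 26 with a replicate left out (26 without D489V replicate 3). For knockout against D489V (3181 genes) a left-out replicate gave 1398 (without D489V replicate 1) to 3686, and 1526 and 1989 without D489V replicates 2 and 3. Upper-quartile rescaling gave 2531, 32.9% higher against 50.3%.

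A replicate block left 1, 7 and 2208 genes and 0, 0 and 5 members called, Ier3 being the member lost (-0.47, adjusted p 0.0845). Deviations of samples sharing a number correlated between -0.21 and 0.24 for knockout with control, -0.4 and 0.39 for D489V with control, and -0.11 and 0.1 for knockout with D489V. The pairing by number was thus not borne out.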
